A study of Mus musculus with 12 samples.

Results

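Genes of fibroblast growth factor (FGF) signalling, 10 in number, were followed in the hand and foot plates of mouse embryos. They are the ligands Fgf2, Fgf4, Fgf8, Fgf9, Fgf10 and Fgf18, the receptor kinases Fgfr1, Fgfr2 and Fgfr3, and the receptor-like protein Fgfrl1. Every probe set annotated to exactly 1 of these genes was taken. This gave 20 probe sets, 16 of the A array and 4 of the B array, out of 22690 and 22575 probe sets in all. The genes are 10 of 18194 that the arrays name.

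FGF ligands are secreted proteins that bind receptor tyrosine kinases together with heparan sulfate and activate the RAS and MAP kinase relay. In the limb, a strip of ectoderm at the distal margin, the apical ectodermal ridge, makes Fgf8, Fgf4 and Fgf9, which keep the mesenchyme beneath it growing. The mesenchyme answers with Fgf10, which acts on the ectodermal form of Fgfr2. Later, Fgf18 and Fgfr3 act in the forming skeleton.

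The RNA came from autopods of wild-type mouse embryos at E12.5, with no allele or treatment named. Forelimb 11, 13 and 25 and hindlimb 12, 14 and 26, called by the numbers in their titles, made up 3 samples per limb. Each was hybridised to both Affymetrix MOE430 designs, called the A and B arrays here. Every sample is whole tissue, so fewer cells of a type and less RNA per cell cannot be told apart. Whether samples of a limb came from different embryos or from pools is not stated, and the spread that the p-values rest on may therefore be technical.

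The limb labels were checked with the limb-type factors. For Tbx5, the forelimb range was 474 to 555 and the hindlimb range 8.0 to 13.9 on one probe set. On the other, the forelimb range was 1145 to 1381 and the hindlimb range 29.3 to 174, with hindlimb 14 the highest hindlimb sample. For Tbx4 on the B array these ranges were 1124 to 1251 and 4497 to 5558. Forelimb 11 on the A array carries no limb in its tissue label and was placed by its title, and its Tbx5 signal was that of a forelimb sample. Receptor values are therefore also given without it. Signals are MAS5.0 values brought to a trimmed mean of 500 per array, a linear scale on which levels of different probe sets or designs were not compared. A probe set was tested where at least 3 of the 6 arrays reached a signal of 100, the signal filter. Tested were 9 of 16 A-array and 4 of 4 B-array probe sets, and 6 of the 10 genes had a tested probe set.

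No tested FGF ligand or receptor passed the threshold between fore and hind autopods, and the 95% intervals spanned 0 on each tested probe set but 1 of Fgfr2. By limma, 0 of the 9 tested A-array probe sets and 0 of the 4 of the B array passed an adjusted p of 0.05, against 0.0326% and 0.0117% of all tested probe sets. At an unadjusted p under 0.05 in limma there was 1 probe set on the A array, of Fgfr2, and 0 on the B array, against 5.54% of all tested probe sets on either design. The limbs overlapped on each of the 13 tested probe sets. Over all tested probe sets, limbs without overlap made up 11% (A array) and 10.9% (B array). On the A array 7 of the 9 differences (hindlimb minus forelimb) were negative, with a median of -0.20 on the log2(signal + 32) scale, where 52.2% of all tested probe sets were negative and the median was -0.01. On the B array 2 of 4 were negative, with a median of 0.02. The 9 A-array probe sets read 6 genes in the same samples and are not independent. Of the 7 negative ones, 4 were of Fgfr2 and Fgfr3.

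**Figure D1:**
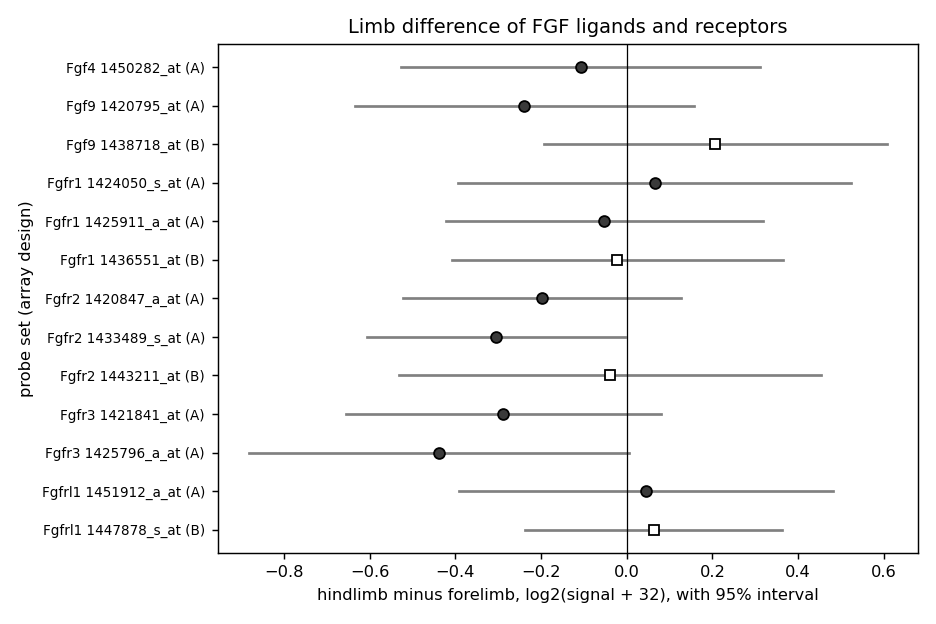
Differences between hindlimb and forelimb (log2(signal + 32), horizontal axis) for the 13 tested probe sets, with 95% intervals from the limma fit; filled circles are A-array and open squares B-array probe sets. The values run from -0.44 to 0.21, and the Fgfr2 and Fgfr3 probe sets of the A array lie to the left of 0.

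Fgf8, the main ridge FGF, has 1 probe set on these arrays, 1451882_a_at on the A array, and it stayed under the filter in all 6 samples. Its signals were 65.6, 58.8 and 43.4 in forelimb 11, 13 and 25 and 52.6, 66.1 and 70.6 in hindlimb 12, 14 and 26. The limbs overlapped, with means of 55.9 ± 11.4 and 63.1 ± 9.4 (SD, n = 3). In the limma fit without the filter the Fgf8 difference was 0.12 ± 0.18 (SE, adjusted p = 0.993), a value on a dim signal that the pseudocount of 32 pulls towards 0. No difference in Fgf8 was detectable at this signal.

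Fgf4, a second ridge ligand, was read by 4 probe sets of the A array. On 1450282_at, the 1 tested, the signals were 222, 193 and 263 in forelimb 11, 13 and 25 and 154, 246 and 228 in hindlimb 12, 14 and 26. Hindlimb 12 was the lowest sample and the other hindlimb samples lay within the forelimb range. The difference was -0.11 ± 0.19 (95% interval -0.53 to 0.31, limma adjusted p = 0.995). It turned to 0.07 without hindlimb 12. The other 3 probe sets, which the annotation ties to 1 shared source sequence, had signals between 3.0 and 15.9, all under the filter. The annotation gives no detail that says which of them reads the Fgf4 transcript best.

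Fgf4 lies between Fgf3 and Fgf15 in the gene order of the mouse RefSeq table (GRCm38.p6, used for names and order). Fgf15 had 6.7 to 32 on its A-array probe set, under the filter in every sample. Fgf3 had 5.7 to 17.9 and 15.4 to 65.7 on its A-array probe sets, also under it. Its B-array probe set ranged from 58.6 to 452 with overlapping limbs, and the x suffix of that probe set marks probes that may bind other transcripts.

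Fgf9, another ligand of the ridge, was tested on both designs. On 1420795_at of the A array the signals were 189, 151 and 161 in forelimb 11, 13 and 25 and 150, 154 and 109 in hindlimb 12, 14 and 26. On 1438718_at of the B array they were 421, 464 and 489 in forelimb and 584, 576 and 449 in hindlimb. The limbs overlapped on each, and the probe sets differed in sign, at -0.24 ± 0.18 (95% interval -0.63 to 0.16) and 0.21 ± 0.18 (-0.19 to 0.61), with limma adjusted p of 0.964 and 0.929. Hindlimb 26 was the lowest hindlimb sample on both. Without that sample the values were -0.11 and 0.32. Each sign held under all 15 alternative settings that kept its probe set, and each interval spanned 0.

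The remaining ligands were below the filter. Fgf10, the mesenchymal ligand, had 65.0, 73.8 and 131 in forelimb 11, 13 and 25 and 36.0, 94.8 and 77.8 in hindlimb 12, 14 and 26. Forelimb 25 was its highest sample and hindlimb 12 its lowest, with the rest mixed between the limbs. Fgf18, a ligand of the skeletal lineages, had 104, 30.6 and 77.4 in forelimb and 50.1, 83.5 and 41.0 in hindlimb, in the same order of samples. All hindlimb values of Fgf18 lay inside the forelimb range. Fgf2, a ligand without a secretion signal, had 28.0, 22.0 and 17.6 in forelimb and 27.4, 51.6 and 6.4 in hindlimb. Without the filter, limma gave differences of -0.27 ± 0.29 for Fgf10 (adjusted p = 0.980), -0.14 ± 0.31 for Fgf18 (adjusted p = 0.999) and 0.08 ± 0.26 for Fgf2 (adjusted p = 0.999).

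**Figure D2:**
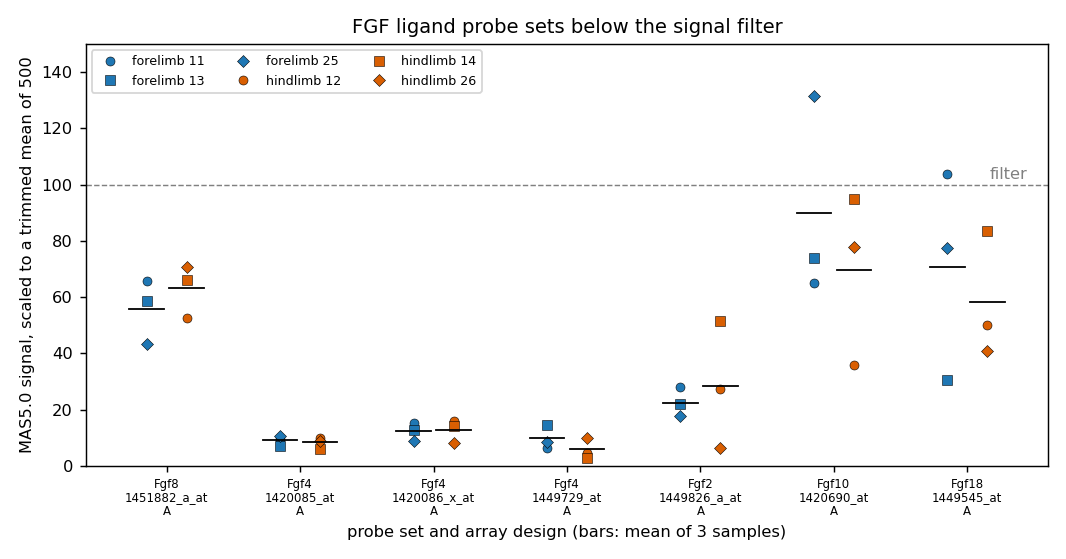
Signals (vertical axis, scaled MAS5.0 units) of the 7 ligand probe sets below the filter on the A array; each point is a sample, bars are means of 3 samples, and the dashed line is the filter at 100. Fgf10 in forelimb 25 (131) and Fgf18 in forelimb 11 (104) are the 2 points above the line, and the limbs overlap on every probe set.

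Fgfr1, the receptor of the limb mesenchyme, was read by 3 tested probe sets. On 1425911_a_at the signals were 1027, 1374 and 1232 in forelimb 11, 13 and 25 and 908, 1316 and 1302 in hindlimb 12, 14 and 26. On 1424050_s_at the forelimb had 601, 1142 and 1060, with forelimb 11 apart from the others, while the hindlimb had 984, 883 and 965. On 1436551_at of the B array the hindlimb samples were nearly equal at 763, 770 and 764, inside the forelimb values of 667, 996 and 706. The differences were -0.05 ± 0.17, 0.06 ± 0.21 and -0.02 ± 0.18, with limma adjusted p of 0.992 to 0.995. Their 95% intervals were -0.422 to 0.319, -0.394 to 0.523 and -0.409 to 0.365, so each probe set by itself left room for a change in either direction within those limits. Without forelimb 11 the values, in the same order, were -0.16, -0.22 and -0.13.

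Fgfr2, whose splice forms serve ectoderm and mesenchyme, had negative differences on both A-array probe sets. On 1433489_s_at the signals were 2427, 1967 and 1882 in forelimb 11, 13 and 25 and 1558, 1928 and 1570 in hindlimb 12, 14 and 26. Hindlimb 14 lay inside the forelimb range and the other hindlimb samples lay below it. The difference was -0.30 ± 0.14 (95% interval -0.61 to -0.00, limma adjusted p = 0.893). This interval is for a single probe set and is not adjusted for the number tested. On 1420847_a_at the forelimb had 1361, 1076 and 1209 and the hindlimb 898, 1232 and 1047, a difference of -0.20 ± 0.15 (adjusted p = 0.963). The B-array probe set 1443211_at had 503, 415 and 455 in forelimb and 335, 430 and 601 in hindlimb, and its difference of -0.04 ± 0.22 (adjusted p = 0.988) changed sign under some alternatives. Which probe set reads which splice form is not given in the annotation used here.

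Fgfr3, the receptor of forming cartilage, was also lower on average in hindlimb by both of its A-array probe sets and missed the threshold on each. On 1421841_at the signals were 672, 558 and 461 in forelimb 11, 13 and 25 and 381, 474 and 506 in hindlimb 12, 14 and 26. On 1425796_a_at they were 190, 157 and 136 in forelimb and 101, 90.0 and 144 in hindlimb. Forelimb 25 was the lowest forelimb sample on each, and hindlimb 26 lay above it on both, as did hindlimb 14 on 1421841_at. The differences were -0.29 ± 0.17 (95% interval -0.66 to 0.08, limma adjusted p = 0.940) and -0.44 ± 0.20 (-0.88 to 0.01, adjusted p = 0.906). Of the 13 tested FGF probe sets, the last had the largest difference.

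Fgfrl1, which binds FGFs and heparin but lacks the kinase that the other receptors use to signal, had differences on both designs that changed sign when single samples were left out. On 1451912_a_at of the A array it had 359, 646 and 496 in forelimb and 449, 595 and 478 in hindlimb, all 3 hindlimb samples within the forelimb range. On 1447878_s_at of the B array it had 3660, 3767 and 4807 in forelimb and 4302, 4572 and 3845 in hindlimb. The differences were 0.05 ± 0.20 and 0.06 ± 0.14 (limma adjusted p = 0.996 and 0.969). Without forelimb 11 they were -0.16 and -0.0091. The narrowest interval among these genes was that of the B-array probe set, -0.24 to 0.36.

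**Figure D3:**
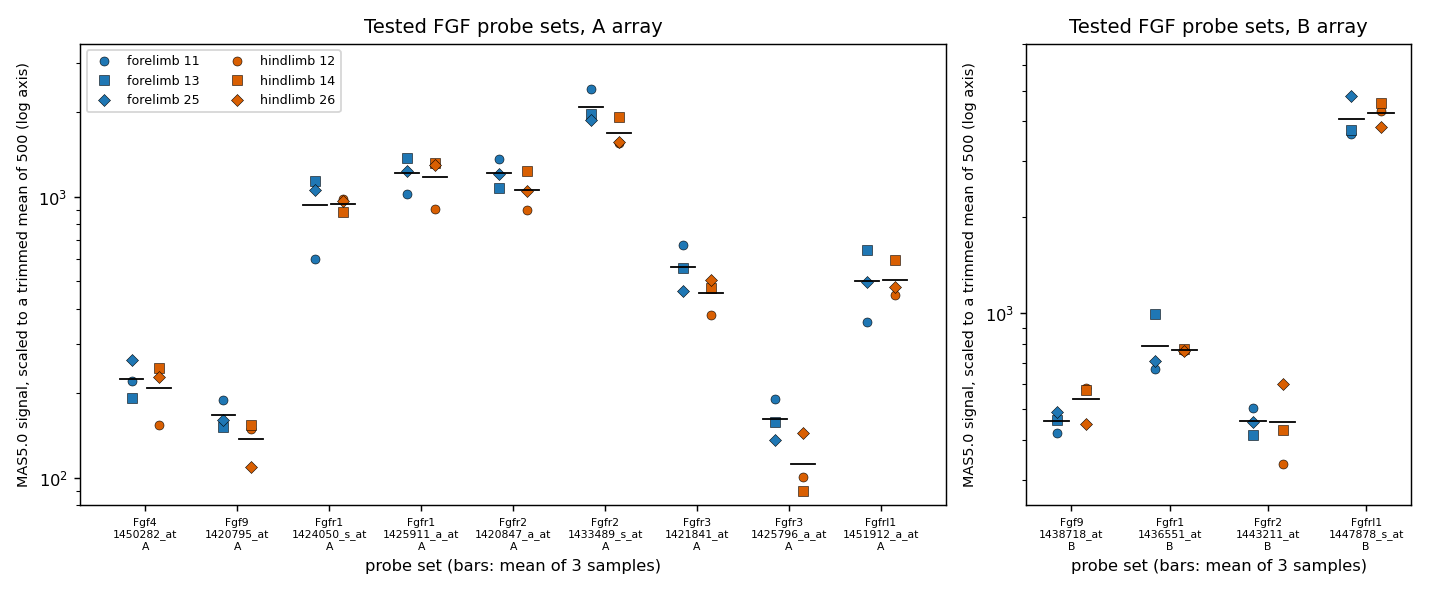
Signals (scaled MAS5.0 units, log axis) of the 9 A-array and 4 B-array probe sets that passed the filter; each point is a sample, with blue for forelimb and orange for hindlimb, and bars are means of 3 samples. The limbs overlap on every probe set, and forelimb 11 is the highest forelimb point for Fgfr2 and Fgfr3 and the lowest for Fgfr1 and Fgfrl1.

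Promoter windows from RefSeq (GRCm38.p6, the 250 bases before each listed start) were found for 8 of the 10 genes, as 9 windows; Fgf8 and Fgfr1 had no entry. Windows of Fgfr2 and Fgfr3 are shown because these were the receptors with a negative difference on every A-array probe set. Each line gives the last 150 bases before the listed start, 5′ to 3′ on the gene's strand, with CG dinucleotides in capitals. Fgfr2 lies at chr7:130266809-130266958 on the minus strand and Fgfr3, by the first of its 2 starts, at chr5:33721574-33721723 on the plus strand.
Fgfr2: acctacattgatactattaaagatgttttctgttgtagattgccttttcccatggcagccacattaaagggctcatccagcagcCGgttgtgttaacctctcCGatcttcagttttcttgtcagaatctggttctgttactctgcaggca
Fgfr3: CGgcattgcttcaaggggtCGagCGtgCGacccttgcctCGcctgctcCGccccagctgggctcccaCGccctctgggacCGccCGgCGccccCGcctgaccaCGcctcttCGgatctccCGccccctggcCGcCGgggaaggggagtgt
Over the 250 bases Fgfr2 held 2 CG dinucleotides, a number that 29.0% of all 32851 windows did not exceed. Fgfr3 held 19 by its first start, a number that 19.7% of windows reached, and 24 by its second. Whether the autopod uses these listed starts was not tested. The member windows held 2 to 37, where the median of all windows was 6. The GC box (GGGCGG on either strand, so also CCGCCC) occurred in 7 of the 9 member windows and in 32.7% of all windows, and was not in those of Fgfr2 and Fgf9. The pair of receptors with like signs differed in these features, which describe the letters only; nothing is drawn from them about any factor.

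The order of the forelimb samples was alike within pairs of receptor genes, a pattern that was picked for description after its values were seen. Forelimb 11 had the lowest forelimb signal on 5 of 5 probe sets of Fgfr1 and Fgfrl1 and the highest on 5 of 5 of Fgfr2 and Fgfr3. Its log2 signal lay -0.84 to -0.22 from the mean of the other 2 forelimb samples for the first pair of genes and 0.20 to 0.38 for the second. Over all tested probe sets this deviation had a 10th to 90th percentile range of -0.37 to 0.35 on the A array and -0.49 to 0.60 on the B array. Most of the receptor values lay inside it, the exceptions being Fgfr1 1424050_s_at (-0.84), Fgfrl1 1451912_a_at (-0.61) and Fgfr3 1421841_at (0.38). Forelimb 11 was the lowest forelimb sample on 38.1% of all tested A-array and 31.8% of B-array probe sets and the highest on 35.9% and 37.5%. The A and B arrays of a number were read as the same sample, so the probe sets are not independent. Hindlimb 12 was the lowest hindlimb sample on 4 of 5 probe sets of Fgfr2 and Fgfr3, where its share over all tested probe sets was 36.7% (A array) and 37.0% (B array).

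**Figure D4:**
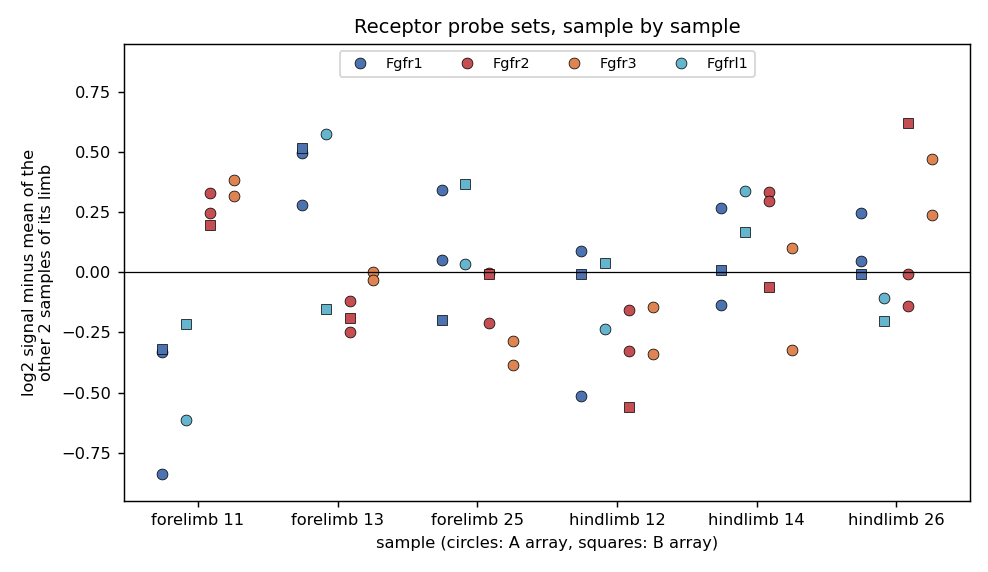
Log2(signal + 32) of each receptor probe set in a sample minus the mean of the other 2 samples of its limb (vertical axis), by sample; circles are A-array and squares B-array probe sets, coloured by gene. In forelimb 11 the Fgfr1 and Fgfrl1 points lie at -0.84 to -0.22 and the Fgfr2 and Fgfr3 points at 0.20 to 0.38.

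The Fgfr2 and Fgfr3 differences were smaller without forelimb 11, which follows from leaving out their highest forelimb sample. Those of Fgfr2 became -0.19 and -0.12 on the A array (from -0.30 and -0.20) and 0.03 on the B array (from -0.04), and those of Fgfr3 -0.16 and -0.33 (from -0.29 and -0.44). Without hindlimb 12 they were -0.25 and -0.09 (Fgfr2) and -0.18 and -0.39 (Fgfr3) on the A array. The B-array value of Fgfr2 then turned positive, at 0.15. Leaving out other samples made some A-array differences larger. Fgfr2 1433489_s_at reached -0.40 without hindlimb 14, and Fgfr3 1425796_a_at reached -0.59 without hindlimb 26. All differences of these receptors stayed negative on the A array, and none passed the threshold in any fit.

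The summed signals of 3 marker lists were, like Fgfr2 and Fgfr3, higher on average in forelimb on the A array. This direction was not particular to them, and the lists were chosen with earlier results of these data known. The A-array sums of the ridge, ridge-loop mesenchyme and endothelial lists were also higher on average in forelimb, with overlapping limbs. That of the erythroid list was higher in hindlimb. The summed signal of 14 surface ectoderm genes (of 15 listed, Krt19 being under the filter) ranged from 6524 to 7437 over the forelimb samples and from 5516 to 6101 over the hindlimb samples. That of 13 cartilage genes (of 15, with Cnmd and Matn1 under the filter) was 12478 to 13917 and 10697 to 12461. That of 9 muscle genes (of 13, with Myf5, Myl4, Pax3 and Pax7 under the filter) was 1764 to 2407 and 1409 to 1681. None of the 3 sums overlapped between limbs, though those of cartilage nearly touched (12478 and 12461). None did without forelimb 11 either, where the forelimb values were 7201 and 6524 (ectoderm), 13917 and 12500 (cartilage) and 1764 and 1804 (muscle). The sums add linear signals, so bright genes weigh most, in cartilage Col9a1 (difference 0.19) and Col2a1 (-0.61). Gene by gene, by the brightest probe set, the limbs did not overlap for 4 of 14 ectoderm, 4 of 13 cartilage and 1 of 9 muscle genes. Over all tested A-array probe sets this share was 11%. Within a limb the order of the 3 samples is given for description only. Forelimb 11, highest for Fgfr2 and Fgfr3, had the highest ectoderm and muscle sums of the forelimb and the lowest cartilage sum, 12478. Hindlimb 12, lowest on most Fgfr2 and Fgfr3 probe sets, had the highest ectoderm sum of the hindlimb, 6101, and the lowest cartilage and muscle sums. No gene of these 3 lists passed the threshold. Positive differences were found for 5 of 14 ectoderm genes (median -0.09), 4 of 13 cartilage genes (median -0.33) and 0 of 9 muscle genes (median -0.28). By the rule for named genes, the 2 genes of smallest p per list were Krt15 (-1.38) and Krt14 (-0.83, -0.66 and 0.08), Matn4 (-0.79) and Acan (-0.72), and Des (-0.95 and -0.21) and Actc1 (-0.40). The lowest limma adjusted p of each of these genes ran from 0.059 (Krt15) to 0.923 (Actc1). Other genes, picked after their values were seen, ran the other way, among them Krt8 (0.28, hindlimb above forelimb without overlap) and Krt18 (0.31) of the ectoderm list and Col9a1 (0.20 and 0.19) of the cartilage list. On the B array the sums of the 3 ectoderm and 5 cartilage genes overlapped between limbs, as did the signal of the 1 tested muscle gene. The log2 ratio of 3′ to 5′ Gapdh signal, a sign of RNA quality, ranged on the A array from -0.24 to -0.08 (forelimb) and from -0.30 to -0.26 (hindlimb). That of beta-actin overlapped, at 0.12 to 0.26 and 0.22 to 0.27, and on the B array both ratios overlapped between limbs. The part of these measures in the Fgfr2 and Fgfr3 values was not tested.

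The other genes of the pathway were taken from lists drawn up by function, with the brightest tested probe set per gene for the counts, and none of their tested probe sets passed the threshold in limma. Of 7 FGF response and feedback genes on the A array 6 had a negative difference (median -0.11), and of 8 on the B array 6 did (median -0.10). Over all tested probe sets 52.2% were negative on either design. The 2 designs were read from the same samples and share some of these genes, so their counts are not independent. Spry1, a Sprouty inhibitor induced by FGF signalling, had 672, 677 and 849 in forelimb 11, 13 and 25 and 541, 480 and 450 in hindlimb 12, 14 and 26. All forelimb samples lay above all hindlimb samples, and the difference of -0.55 ± 0.14 missed the threshold (adjusted p = 0.498). Spred2, a Sprouty-related inhibitor of RAS signalling, had -0.20 on the A array and -0.51, -0.40 and 0.53 on the B array. Not all members had this sign, since Dusp6, the ERK phosphatase that FGF signalling induces, had 0.28 ± 0.13 (adjusted p = 0.923). Its signals were 1422, 1337 and 1423 in forelimb and 1408, 1826 and 1916 in hindlimb. Spred3 on the B array also had a positive difference, 0.52 ± 0.22 (limma adjusted p = 0.894), with all hindlimb samples above all forelimb samples. Dusp6 and Spred3 lie outside the rule for named genes and were picked after their values were seen.

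Among 12 other ligands, 4 had a tested probe set on the A array (2 of them positive, median -0.07) and 2 on the B array (1 positive). Fgf7, a mesenchymal ligand of the ectodermal Fgfr2 form, had -0.42 ± 0.23 on the A array (adjusted p = 0.940) and -0.65 ± 0.38 on the B array (adjusted p = 0.904). Its B-array signals were 287, 196 and 304 in forelimb and 304, 101 and 109 in hindlimb, where hindlimb 12 was like the forelimb. Fgf22 had 0.28 on the A array. Of the homologous factors, which are not secreted, Fgf12 had -0.44 on the A array and 0.01 and 0.06 on the B array, and Fgf13 had -0.18. Fgfr4, the remaining signalling receptor and outside the rule for named genes, had -0.38, 0.04 and 0.27 on its 3 tested probe sets, with adjusted p of 0.940 to 0.997.

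In the list of other receptors and binding proteins, 2 genes were tested on the A array. These were Fgfr4, positive on its brightest probe set, and Fgfbp1, which was negative. On the B array 4 genes of the list were tested (3 positive, median 0.13). Flrt3, a membrane protein that binds FGF receptors, was read by one B-array probe set at 1726, 1388 and 1878 in forelimb and at 2226, 2330 and 2370 in hindlimb. Its hindlimb samples lay above the forelimb samples on both of its probe sets, at 0.48 ± 0.14 (adjusted p = 0.775) and 0.32 ± 0.13 (adjusted p = 0.894). Flrt1 went the other way at -0.37 on a probe set without overlap and -1.27 on one with overlapping limbs. Of 9 and 6 heparan sulfate enzymes on the A and B arrays, 4 and 2 were positive (medians -0.01 and -0.06). Sulf1, which removes sulfate from heparan sulfate at the cell surface, was read by one B-array probe set at 4629, 5275 and 4919 in forelimb and at 7477, 6988 and 6247 in hindlimb, with no overlap. Its difference of 0.48 ± 0.12 missed the threshold (adjusted p = 0.747), and another probe set gave 0.26 with overlapping limbs. Hs6st1 had -0.47 on the A array with overlapping limbs. In the RAS-MAPK relay 7 of 11 genes on the A array and 2 of 3 on the B array were positive (medians 0.04 and 0.02). Gab1, a docking protein, had -0.35, -0.29 and -0.23 on the A array, and Sos1, a RAS exchange factor, -0.25 on the A array and 0.06 and -0.02 on the B array.

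**Figure D5:**
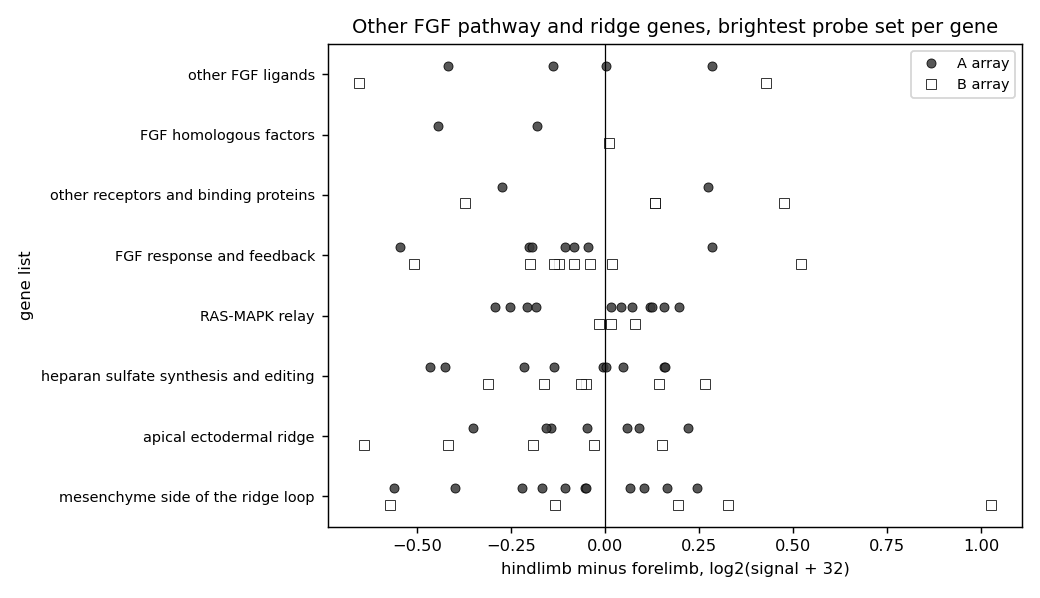
Difference between hindlimb and forelimb (log2(signal + 32), horizontal axis) of each tested gene in 8 lists of FGF pathway and ridge genes, by its brightest tested probe set; filled circles are A-array and open squares B-array values. Points lie on both sides of 0 in every list, 6 of 7 A-array response genes are negative, and none passed the threshold.

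Genes of the ridge and of the mesenchyme that exchanges signals with it had values in both directions. Of the ridge list 7 genes were tested on the A array (3 positive, median -0.05) and 5 on the B array (1 positive, median -0.19). Msx2, a homeobox factor of ridge and distal mesenchyme, was read on the A array at 1041, 1161 and 1118 in the forelimb samples and at 810, 862 and 910 in the hindlimb samples, without overlap (-0.35 ± 0.12, limma adjusted p = 0.684). Its B-array probe set gave 0.15 with overlapping limbs. Trp63, the p63 factor of stratified epithelium, had 0.09 (A array) and -0.42 (B array). The summed signal of the tested ridge genes overlapped between limbs on the A array, at 2490 to 2951 in forelimb and 2356 to 2601 in hindlimb, and did not on the B array, at 1872 to 2270 and 1713 to 1851. Gene by gene, by the brightest probe set, 0 of these 5 B-array genes had limbs without overlap, where the share over all tested probe sets was 10.9%. Of the mesenchymal genes 4 of 11 on the A array and 3 of 5 on the B array were positive (medians -0.05 and 0.19). Bmp7, a bone morphogenetic protein, had -0.56, -0.41 and -0.35 on 3 probe sets with no overlap on any (adjusted p = 0.552 to 0.940), and Tbx3, a T-box factor, had -0.17 (A array) and -0.57 (B array), also without overlap.

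The other cell types of the autopod gave 0 probe sets past the threshold. On the A array 3 of 9 endothelial genes were positive (median -0.07; Flt1 0.33 and -0.34, Pecam1 -0.22), as were 5 of 5 erythroid genes (median 0.18; Hbb-y 0.18, 0.06 and -0.05, Hbb-bh1 0.32, 0.18 and 0.14). So were 4 of 6 macrophage genes (median 0.01; Lcp1 0.33 and 0.00, Csf1r -0.16, 0.10 and 0.11) and 3 of 5 nerve and Schwann precursor genes (median 0.00; Nefm 0.72, Ngfr -0.72). The erythroid sum was 28561 to 31190 over the forelimb samples and 32050 to 35505 over the hindlimb samples, while the endothelial, macrophage and nerve sums overlapped between limbs. Hbb-y and Hba-x weigh most in the erythroid sum. Of its 5 genes 1 had limbs without overlap, Hbb-y by the probe set of 0.18. The limbs overlapped on the other Hbb-y probe sets and on that of Hba-x (0.08).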

How the data were processed

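Total RNA of wild-type E12.5 autopods was measured on 12 Affymetrix MOE430 A and B arrays (6 samples). The authors deposited intensities, MAS5.0 signals per probe set, per the labels (forelimb 11's A array lacks that note). The deposited 2% trimmed mean was 350.1 on every A and 70.0 on every B array. The sources used here give neither software version nor detection calls. Symbols came from the platform annotation, updated through gene identifiers with RefSeq GRCm38.p6. Probe sets of several genes or none were tested and not named.

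Arrays were scaled to a trimmed mean of 500, which stretches dim B signals (factor 7.14, against 1.43 for A), and taken as log2(signal + 32), a scale that understates changes of dim probe sets. Probe sets reaching 100 on 3 or more of the 6 arrays (15338 and 17145, control probe sets left out) were compared, hindlimb minus forelimb. Each design was fitted separately with R 4.3.3 and limma 3.58.1 (two-sided moderated test, trended eBayes, Benjamini-Hochberg adjustment over the design, threshold 0.05). Errors are standard errors and 95% intervals of that fit, n = 3 per limb, a number that limits precision. The code was tested on simulated data. Figures used matplotlib 3.10.9 in Python 3.11.15.

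The member genes and the gene lists were chosen with earlier results of these data known. Besides the members, the 2 genes of smallest p in a list were named where none of it passed the threshold, otherwise those that passed. A search for genes most like Fgf8 was planned on a tested Fgf8 probe set; there was none, so it was not made. Results were recomputed with array weights, quantile normalization, the deposited scale, pseudocounts of 100 or 1, a filter of 200 or none, and an untrended eBayes. Further fits blocked on neighbouring sample numbers, adjusted over the 2 designs jointly, or left out 1 sample.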

Additional observations from a re-analysis of the deposited data

How the results depend on the processing

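The count of FGF probe sets past the threshold was 0 on either design under all 16 alternatives, and the lowest adjusted p of any was 0.602. Under all of them that kept the probe set, 6 of the 13 tested FGF probe sets kept their sign, those of Fgf9 and the A-array ones of Fgfr2 and Fgfr3. The other 7, all within 0.11 of 0, changed sign at least once. With array weights, Fgfr1 (1424050_s_at) gave -0.030, Fgfrl1 on the A array -0.032 and Fgfr2 on the B array 0.0056. With quantile normalization, Fgfr2 and Fgfrl1 on the B array gave 0.0063 and -0.011. Leaving out each sample gave -0.22 to 0.23 and -0.16 to 0.12 for Fgfr1 on the A array (1424050_s_at and 1425911_a_at) and -0.13 to 0.15 on the B array. It gave -0.22 to 0.07 for Fgf4, -0.25 to 0.15 for Fgfr2 on the B array, and -0.16 to 0.24 and -0.0091 to 0.19 for Fgfrl1 on the A and B arrays; the cause was not tested. The filter at 200 removed Fgf9 and Fgfr3 (1425796_a_at) from the A array, and the deposited scale left 2 of 4 B-array probe sets.

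The labels do not say that consecutive sample numbers pair the samples, and the data do not settle it. Deviations from the limb means correlated at 0.21, 0.11 and 0.08 on the A array, each sample best with its neighbour in number, and at 0.00, 0.05 and 0.04 on the B array. With that block 0 FGF probe sets passed, while the calls over all probe sets went from 5 to 8 (A array) and from 2 to 4 (B array). Over all alternatives these calls ran from 1 to 14 and from 0 to 4. The low signals of Fgf8, Fgf10, Fgf18 and Fgf2 limit what can be said of these ligands.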
